A study of Mus musculus with 6 samples.

Results

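*Cited1* was followed together with its family members *Cited2* and *Cited4* and with 3 genes of the machinery they act through, *Ep300*, *Crebbp* and *Smad4*, in mouse B16-F10 melanoma cells sorted by pigment. These 6 genes are 6 of the 18324 gene rows of the count table and were found by mouse symbol. All 6 had a row, and 5 of them passed the filter on low counts, *Cited4* being the one that did not. *Cited1* was chosen because earlier work on these same data had shown it higher in high-pigmented cells and very unequal between replicate sets, so its values in those contrasts are given below as a description with no test. The other 5 genes were chosen for their relation to *Cited1*.

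The cells were of one established line, B16-F10, grown in culture, and were sorted by fluorescence-activated cell sorting on the light scatter caused by melanin. There were 2 groups, cells with much pigment (high-pigmented) and cells with little pigment (low-pigmented), with 3 libraries each. No other treatment or genetic change is named for either group. One library of each group shares a suffix in its title, and these pairs are called sets 1 (16-9-15), 2 (18-8-14) and 3 (1-9-14). The labels do not say what the suffix marks or whether the libraries came from separate cultures, so p values measure only the spread between these libraries, which may be technical.

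CITED proteins do not bind DNA themselves. They carry an acidic carboxy-terminal region that binds the acetyltransferases p300 and CBP, the products of *Ep300* and *Crebbp*, and so link these coactivators to DNA-binding factors such as AP-2 and SMAD proteins. *Cited1* was first described as a melanocyte-specific gene in melanoma cells, *Cited2* is induced by hypoxia and competes with hypoxia-inducible factors for p300 and CBP, and SMAD4 is the common partner of receptor-activated SMADs in signalling by TGF-beta and BMP ligands.

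*Cited1* lies on the minus strand at chrX:102247381-102252181 of GRCm38 (GENCODE vM21), and *Cited2* at chr10:17723218-17725674 and *Cited4* at chr4:120666572-120667820 on the plus strand. *Ep300* lies at chr15:81585351-81652077 on the plus strand and *Crebbp* at chr16:4081328-4213997 on the minus strand. Reads of 3′-end libraries fall close to the poly(A) tail, which means that a count sums over all start sites of a gene. RefSeq gives *Cited1* 3 start sites, which these counts cannot tell apart. The windows from 250 bases before to 50 bases after each start are shown because *Cited1* is the member with the largest differences between libraries, with the single window of *Cited2* for comparison within the family (RefSeq, GRCm38.p6, 5′ to 3′ on the gene's strand). Capitals mark matches, on either strand, to the E-box letters CATGTG and CACGTG that MITF and other helix-loop-helix factors can bind, to the TATA box TATAAA, to the cAMP-response half-site TGACG and to the AP-2 pattern GCCNNNGGC.
*Cited1*, first start, chrX:102252132-102252431, minus strand: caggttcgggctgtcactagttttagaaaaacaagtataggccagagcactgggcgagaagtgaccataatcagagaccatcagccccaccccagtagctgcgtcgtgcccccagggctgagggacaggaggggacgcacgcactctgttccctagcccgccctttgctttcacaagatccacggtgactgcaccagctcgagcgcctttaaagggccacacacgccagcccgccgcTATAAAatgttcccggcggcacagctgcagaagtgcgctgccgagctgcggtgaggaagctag
*Cited1*, second start, chrX:102251794-102252093, minus strand: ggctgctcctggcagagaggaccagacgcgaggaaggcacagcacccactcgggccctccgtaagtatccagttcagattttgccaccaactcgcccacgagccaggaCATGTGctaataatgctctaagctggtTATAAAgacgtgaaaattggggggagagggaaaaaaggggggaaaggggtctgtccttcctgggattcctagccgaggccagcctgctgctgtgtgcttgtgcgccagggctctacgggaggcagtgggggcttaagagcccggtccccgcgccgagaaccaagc
*Cited1*, last start, chrX:102250727-102251026, minus strand: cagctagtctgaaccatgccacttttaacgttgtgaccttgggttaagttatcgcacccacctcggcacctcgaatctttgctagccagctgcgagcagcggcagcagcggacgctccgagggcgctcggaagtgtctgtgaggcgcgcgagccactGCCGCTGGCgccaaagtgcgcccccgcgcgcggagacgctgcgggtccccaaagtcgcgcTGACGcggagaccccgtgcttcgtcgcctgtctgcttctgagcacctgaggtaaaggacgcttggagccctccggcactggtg
*Cited2*, chr10:17722978-17723277, plus strand: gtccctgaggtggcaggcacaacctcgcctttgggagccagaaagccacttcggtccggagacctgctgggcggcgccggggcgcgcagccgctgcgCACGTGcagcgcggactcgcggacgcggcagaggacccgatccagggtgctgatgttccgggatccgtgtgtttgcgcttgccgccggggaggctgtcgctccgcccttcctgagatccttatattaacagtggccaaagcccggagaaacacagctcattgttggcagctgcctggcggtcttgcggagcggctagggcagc

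The first *Cited1* window holds 1 TATAAA match, which begins 13 bases before the start. The second holds 1 CATGTG match 142 bases and 1 TATAAA match 115 bases before its start, and the last holds 1 GCCNNNGGC match at 93 bases and 1 TGACG match at 33 bases before its start. The *Cited2* window holds 1 CACGTG match 153 bases before its start. Among 32851 promoter windows of this length, 14.2% hold CATGTG, 7.15% CACGTG, 13.6% TATAAA, 20.8% TGACG and 16.6% GCCNNNGGC. The first 2 *Cited1* windows have a GC content of 59.7%, the third 64.7% and that of *Cited2* 66.7%, against a median of 52.7% over all windows. A match is a description of the letters and not evidence of a bound site.

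The libraries held between 3819605 and 7311131 counts on genes. The 7 melanocytic markers *Mitf*, *Sox10*, *Pmel*, *Mlana*, *Tyr*, *Tyrp1* and *Dct* had counts in all 6 libraries, with a summed level of 4443 to 20733 CPM (counts scaled to normalised library sizes). Of the markers of other cell types, 4 have a row in the table, and none exceeded 47 counts in any library (*Lyz2*, *Pecam1*, *Col1a1*, *Pdgfrb*). Set 2 stood apart: the row RP23-81C12.3 took 53.9% of gene counts in its high-pigmented and 27.1% in its low-pigmented library, against 3.54% to 5.03% elsewhere. The 2 mitochondrial ribosomal RNAs took 12.2% and 7.69% in set 2, against 1.51% to 1.99% elsewhere (Wilson 95% intervals within 0.050 percentage points, covering counting error only).

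Among 11324 genes tested between high- and low-pigmented cells with edgeR's quasi-likelihood test, 0 genes (0%) had a Benjamini-Hochberg adjusted p under 0.05, and 38 had an unadjusted p under 0.05. DESeq2 and limma-voom also called 0, with 134 and 25 genes at an unadjusted p under 0.05. None of the 4 tested members other than *Cited1* passed. With the sets as a block and set 2 left out, 155 of 11906 genes (1.3%) were called, and *Cited2*, *Ep300*, *Crebbp* and *Smad4* were not among them. That fit holds only sets 1 and 3, with 1 library of each group in each set. Its SEs and p values, here and below, therefore rest largely on spread estimated across genes. None of the 5 members in the fit of all 6 libraries had 3 high-pigmented values all above or all below the 3 low-pigmented ones, where 5.74% of all genes tested did.

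*Cited1* exceeded its low-pigmented level in every set, and in both cell groups it was many times higher in set 3 than in sets 1 and 2. Its raw counts in the high-pigmented libraries of sets 1, 2 and 3 were 366, 200 and 9958, and in the low-pigmented libraries 126, 156 and 5743. On the normalised scale these were 59.5, 116 and 1164 CPM, and 20.8, 44.6 and 603 CPM, in the same order. Both set 3 libraries lay above the other 4, and within sets 1 and 2 both high-pigmented libraries lay above both low-pigmented ones. The order from low to high was low-pigmented set 1, low-pigmented set 2, high-pigmented set 1, high-pigmented set 2, low-pigmented set 3 and high-pigmented set 3. The exact Poisson 95% intervals of neighbours in this order did not overlap, the closest being 37.9 to 52.2 CPM in low-pigmented set 2 and 53.6 to 66.0 CPM in high-pigmented set 1, but such intervals cover counting error only. In bulk RNA, more cells that express the gene and more of its RNA per cell cannot be told apart.

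**Figure D1:**
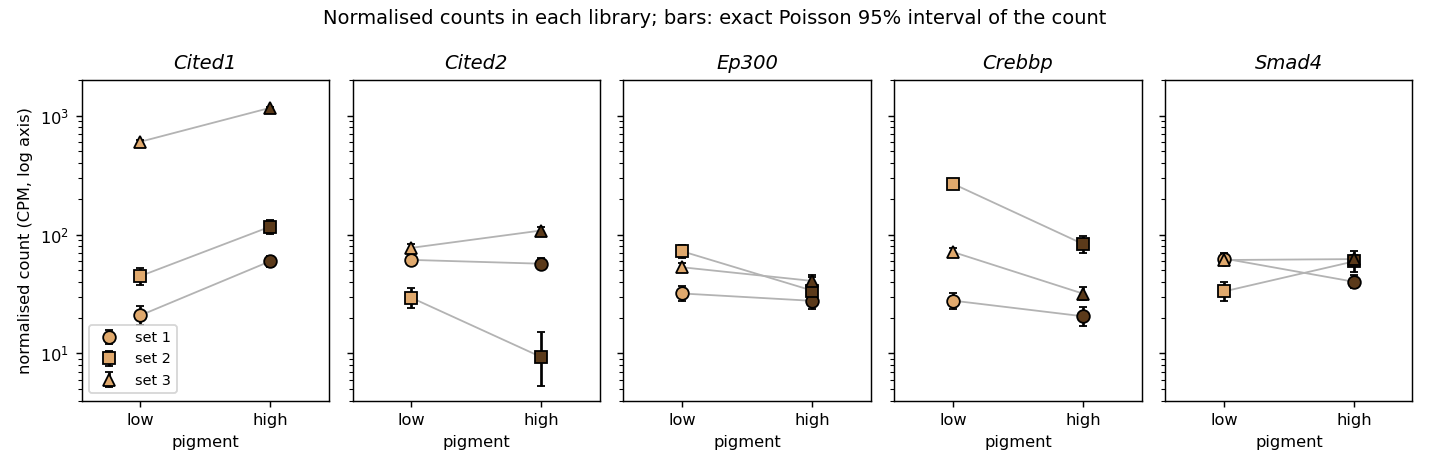
Normalised counts (CPM, log axis) of 5 genes in low- and high-pigmented cells, with circles for set 1, squares for set 2, triangles for set 3, grey lines joining libraries of a set and bars for the exact Poisson 95% interval of the count. *Cited1* runs from 20.8 to 1164 CPM with 3 nearly parallel lines, and *Crebbp* is lower at the high-pigmented end of all 3 lines (267 and 83.2 CPM in set 2).

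The mean level of *Cited1* was 447 ± 622 CPM in the high-pigmented and 223 ± 329 CPM in the low-pigmented group (SD, n = 3 each), so the difference between the groups was smaller than the SD of either. The fitted log2 fold change, high minus low, was 1.00 ± 1.40 (SE). Within sets the values lay closer together. The ratio of high- to low-pigmented CPM was 2.86 in set 1, 2.61 in set 2 and 1.93 in set 3, and the within-set log2 differences of 1.50, 1.38 and 0.95 had a mean of 1.28 ± 0.29 (SD, n = 3 sets). With the set as a block the fitted log2 fold change was 1.28, and without set 2 it was 1.17. Of all genes tested, 12.9% had the higher value in high-pigmented cells in each of the 3 sets, and 1.07% were at least 1.5-fold higher in each, as *Cited1* was. *Cited1* was selected for this direction, so nothing is read from these shares or from its within-set differences.

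Set 3 differed from sets 1 and 2 in *Cited1* by more than the pigment groups differed within any set. Set 3 exceeded set 1 by 19.6-fold in high-pigmented and 29.0-fold in low-pigmented cells, and exceeded set 2 by 10.0-fold and 13.5-fold. Set 2 in turn exceeded set 1 by 1.95-fold and 2.14-fold. The log2 difference of set 3 minus set 1 was 4.28 in high-pigmented and 4.83 in low-pigmented cells, which ranks 5 among the 11324 genes in each group, where the median gene differed by 0.01 and 0.00. By the SD of log2 CPM over all 6 libraries *Cited1* ranked 771 among the same genes. In 5 genes (0.0442% of those tested) both set 3 libraries were at least 4-fold above each of the other 4 libraries. These were *Prss12*, *Gpr37*, *Cited1*, *Gsta2* and *Ccdc13*, a list made after the values were seen. For *Cited1* the lower set 3 library was 5.18-fold above the highest of the others. *Cited1* was selected for its inequality between sets, so nothing is read from its ranks or its place in this list.

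**Figure D2:**
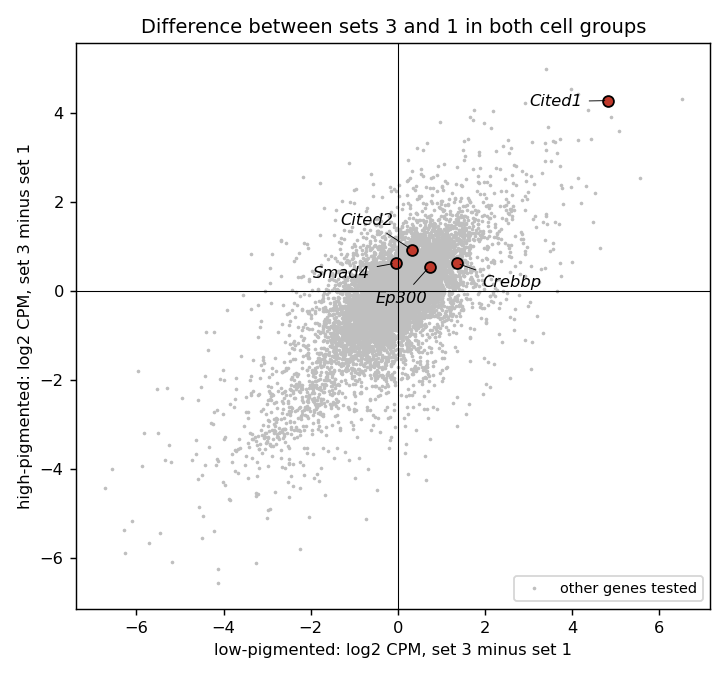
Difference in log2 CPM between sets 3 and 1 in low-pigmented (x axis) and high-pigmented cells (y axis), with 1 grey point for each gene tested and 5 members in red. *Cited1* lies at 4.83 and 4.28, while the other 4 members lie between -0.04 and 1.35 on the x axis and between 0.55 and 0.92 on the y axis.

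The other members differed less than *Cited1* between sets 3 and 1. *Cited1* was selected for its inequality between sets, so nothing is read from its contrast with them in this paragraph. In high-pigmented cells the ratio of set 3 to set 1 was 1.90 for *Cited2*, 1.47 for *Ep300*, 1.55 for *Crebbp* and 1.55 for *Smad4*. In low-pigmented cells it was 1.26, 1.66, 2.57 and 0.97 in the same order. *Cited2* in set 3 exceeded set 2 by 11.6-fold in high-pigmented cells, against 10.0-fold for *Cited1*. In low-pigmented cells it did so by 2.62-fold, against 13.5-fold. The high-pigmented set 2 value of *Cited2* rests on 16 counts. Across the 6 libraries the SD of log2 CPM was 2.25 for *Cited1*, 1.36 for *Crebbp*, 1.25 for *Cited2*, 0.51 for *Ep300* and 0.40 for *Smad4*, against a median of 0.87 over all genes tested. *Ep300* and *Smad4* thus varied less than the median gene, and *Cited1*, *Crebbp* and *Cited2* varied more.

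*Cited2* showed no common direction. Its level was 56.8, 9.31 and 108 CPM in the high-pigmented libraries of sets 1, 2 and 3 and 61.1, 29.4 and 77.2 CPM in the low-pigmented ones. The group means were 58.0 ± 49.4 and 55.9 ± 24.3 CPM (SD, n = 3 each), and the log2 fold change was 0.06 ± 0.77 (SE; edgeR adjusted p 0.9996). It was lower in high-pigmented cells in sets 1 and 2, with log2 differences of -0.11 and -1.63, and higher in set 3, with 0.48. The lowest value rests on 16 counts in the high-pigmented library of set 2, whose exact Poisson 95% interval is 5.32 to 15.1 CPM. That is also the library in which RP23-81C12.3 took the largest share of counts, and the part of that share in the low value was not tested. With the set as a block the log2 fold change was -0.33, and with the block and without set 2 it was 0.19 ± 0.18 (SE; edgeR adjusted p 0.756).

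*Cited4*, the remaining family member in the table, was at or near 0. It had 14 counts (1.47 CPM) in the low-pigmented library of set 3 and 0 counts in the other 5. A count of 0 allows up to 3 counts, which corresponds to 0.351 to 1.75 CPM in the high-pigmented and 0.496 and 0.858 CPM in the other low-pigmented libraries. The limit of 1.75 CPM in the high-pigmented library of set 2 lies above the 1.47 CPM seen in set 3, so the 0 counts there allow a level of that size. No fold is given, because the group of high-pigmented libraries is at 0 throughout.

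The coactivator genes were lower in the high-pigmented library of every set, without passing the test. *Crebbp*, the gene of CBP, had 20.5, 83.2 and 31.8 CPM in the high-pigmented libraries of sets 1, 2 and 3, and 27.8, 267 and 71.3 CPM in their low-pigmented partners. The groups overlapped, and the highest value by far was the low-pigmented library of set 2. Its within-set log2 differences were -0.43, -1.68 and -1.16. The group means were 45.2 ± 33.4 and 122 ± 128 CPM (SD, n = 3 each), and the log2 fold change was -1.45 ± 0.86 (SE; edgeR adjusted p 0.9996). When the low-pigmented library of set 2 was left out, the log2 fold change was -0.15. With the set as a block and set 2 left out it was -0.84 ± 0.22 (SE), and the adjusted p of 0.0616 in edgeR stayed above the threshold.

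*Ep300*, the gene of p300, showed the same direction with smaller differences. Its level was 27.7, 33.8 and 40.7 CPM in the high-pigmented libraries of sets 1, 2 and 3, against 31.9, 72.3 and 53.0 CPM in their low-pigmented partners, so only the low-pigmented value of set 1 lay within the range of the high-pigmented libraries. The group means were 34.0 ± 6.52 and 52.4 ± 20.2 CPM (SD, n = 3 each), the log2 fold change was -0.62 ± 0.45 (SE; edgeR adjusted p 0.9996), and the within-set log2 differences were -0.20, -1.09 and -0.38. When the low-pigmented library of set 2 was left out, the log2 fold change was -0.32, and with the block and without set 2 it was -0.31 ± 0.21 (SE; edgeR adjusted p 0.605). Of all genes tested, 17.2% were lower in the high-pigmented library of each set, so a shared direction in 3 sets was common.

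*Crebbp* and *Ep300* also varied together across libraries. Pearson's r of their log2 CPM over the 6 libraries was 0.85, as a description of points that share libraries and depth, and both had their highest value in the low-pigmented library of set 2. *Crebbp* in set 2 was 4.06-fold its set 1 level in high-pigmented and 9.63-fold in low-pigmented cells, while *Ep300* was at 1.22-fold and 2.27-fold. RP23-81C12.3 and the mitochondrial ribosomal RNAs are also high in that set, and their part in these values was not tested. The human-symbol column of the table lists both rows as EP300, so a table collapsed on that column would merge them. *Crebbp* counts are uncertain to a further extent, because its transcripts share stretches of 100 to 201 nucleotides, at 95% identity or more, with transcripts of 64 other genes, of which 39 have a row in the table. *Ep300* contains the annotated small RNA *Gm23880* on the same strand. No such stretch or exon overlap was found for *Cited1*, *Cited2*, *Cited4* or *Smad4*.

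*Smad4*, which lies on chromosome 18, had nearly the same mean in both groups, at 53.8 ± 12.03 CPM in the high-pigmented and 52.3 ± 16.6 CPM in the low-pigmented group (SD, n = 3 each). Its values were 40.0, 59.4 and 62.1 CPM in the high-pigmented libraries of sets 1, 2 and 3, and 62.8, 33.2 and 61.0 CPM in their low-pigmented partners. The within-set log2 differences were -0.65, 0.83 and 0.03, so the direction changed from set to set. The log2 fold change was 0.04 ± 0.42 (SE; edgeR adjusted p 0.9996), an error that does not show the groups to be alike. Without set 2 and with the block it was -0.31 ± 0.20 (SE; edgeR adjusted p 0.587).

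**Figure D3:**
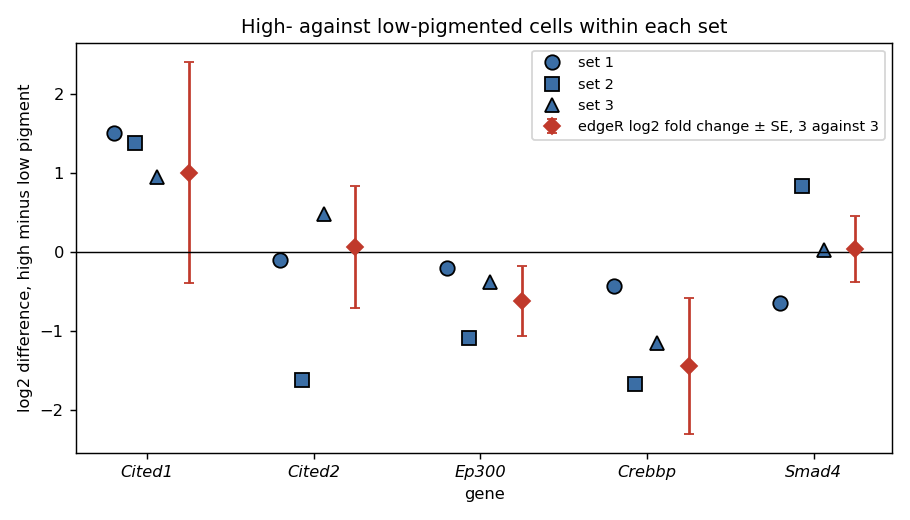
Difference in log2 CPM between high- and low-pigmented cells in sets 1 (circles), 2 (squares) and 3 (triangles), with the edgeR log2 fold change over 3 against 3 libraries and its SE in red. *Cited1* lies above 0 in each set (0.95 to 1.50) with a wide SE of 1.40, and *Ep300* and *Crebbp* lie below 0 in each set.

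The genes whose pattern was most like that of *Cited1* were sought among 7781 other genes with a mean of at least 10 CPM, by Pearson's r of log2 CPM over the 6 libraries, which share depth and composition. The 5 most alike were *Nlk* (r = 0.998), *Plekhg3* (0.994), *Stat5a* (0.994), *Gm10639* (0.991) and *Pik3r3* (0.989). Each of these 5 had the same order of the 6 libraries as *Cited1*, but they were picked for this likeness, so nothing is read from it. *Nlk*, the gene of a kinase related to MAP kinases, ran from 67.9 CPM in low-pigmented set 1 to 147 CPM in high-pigmented set 3. *Stat5a*, a transcription factor gene of cytokine signalling, ran from 13.2 to 31.8 CPM, and *Pik3r3*, a regulatory subunit of phosphoinositide 3-kinase, from 37.8 to 198 CPM. *Gm10639* came nearest to *Cited1* in size. It was 11.6-fold higher in set 3 than in set 1 in high-pigmented and 22.2-fold higher in low-pigmented cells. Its count is uncertain, because up to 874 of its nucleotides are nearly identical to transcripts of the glutathione transferase genes *Gsta1* and *Gsta2*, among others. *Pik3r3*, *Stat5a* and *Plekhg3* also share such stretches with other genes, of up to 1296, 440 and 162 nucleotides.

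The 5 genes most opposite to *Cited1* were *Mxra7* (r = -0.989), *Pgm1* (-0.984), *Impa2* (-0.982), *Otud6b* (-0.981) and *Ppp1r15a* (-0.977). *Ppp1r15a*, a stress-induced phosphatase subunit that acts on the translation factor eIF2, had 187, 170 and 77.8 CPM in the low-pigmented and 142, 150 and 68.6 CPM in the high-pigmented libraries of sets 1, 2 and 3. *Impa2*, which encodes an inositol monophosphatase, was at 0.22 of its set 1 level in high-pigmented and 0.20 in low-pigmented cells of set 3. The counts of *Impa2*, *Otud6b* and *Pgm1* are uncertain. Stretches of up to 1264, 885 and 398 nucleotides in them are nearly identical to other genes.

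**Figure D4:**
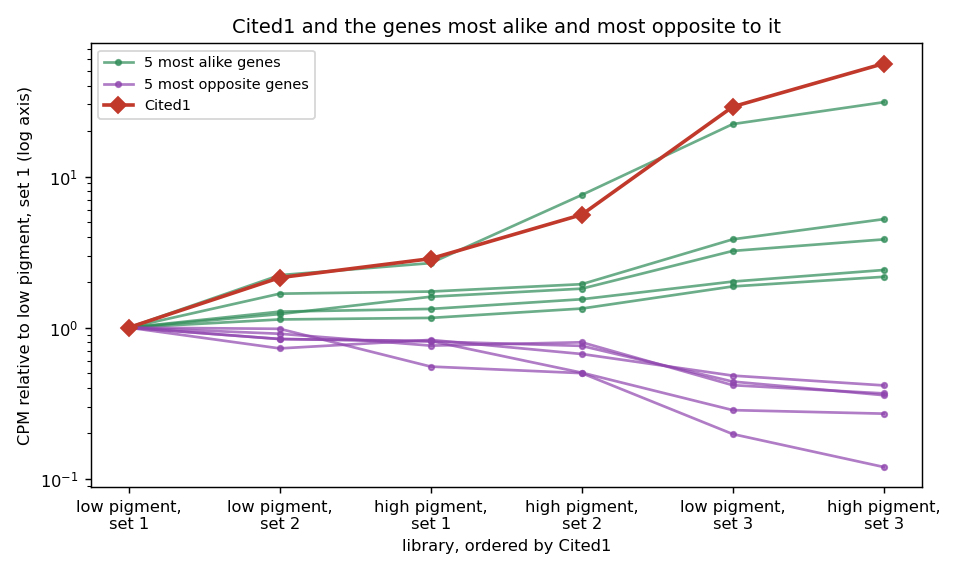
CPM of *Cited1* (red), of the 5 genes most like it (green) and of the 5 most opposite to it (purple), each relative to its value in the low-pigmented library of set 1 (log axis), with libraries ordered by *Cited1*. All 5 green lines, which were picked for their likeness, follow the order of *Cited1*, with only *Gm10639* on a similar scale.

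Pigment genes were compared with *Cited1* side by side. Of 19 melanin synthesis and melanocyte regulator genes, 17 were tested, 0 passed in either direction (1 gene, *Mreg*, at an unadjusted p under 0.05 in edgeR), and the median log2 fold change was 0.32, against -0.04 over all genes tested. The list median within sets was 0.42 in set 1, -0.30 in set 2 and 0.41 in set 3. Over all genes tested these medians were 0.016, -0.20 and -0.002. In set 2 *Cited1* was thus higher in high-pigmented cells, while the medians of the list and of all genes tested were below 0. *Dct*, the gene of dopachrome tautomerase, had 7768, 4002 and 14178 CPM in the high-pigmented libraries of sets 1, 2 and 3, with its highest level in set 3 as for *Cited1* but a ratio of only 1.83 to set 1. *Pmel*, the melanosome matrix gene, had 2176, 148 and 3624 CPM in high-pigmented cells, and its lowest value lay in set 2, where *Cited1* was above its own set 1 level. *Mitf*, the melanocyte master regulator, had 153, 29.1 and 325 CPM in the same libraries. *Tyrp1* and *Rab38*, which encode a melanin synthesis enzyme and a GTPase that carries such enzymes to melanosomes, had log2 fold changes of 0.14 ± 0.94 and -0.04 ± 0.68 (SE). With the set as a block and set 2 left out, 5 of 17 genes tested in this list passed, all higher (*Pmel*, *Oca2*, *Slc45a2*, *Mreg* and *Trpm1*). Of all genes tested in that fit, 1.3% passed. These 5 genes were named after their values were seen, and that fit rests on sets 1 and 3 alone.

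Genes that work with the members were described through lists chosen with earlier results of these data known, and 0 genes of any list passed between high- and low-pigmented cells with all 6 libraries in edgeR. In the 7 lists below, 0 genes had an unadjusted p under 0.05. For the counts of positive values below, 5326 of all 11324 genes tested had a positive log2 fold change. AP-2 factors, which CITED proteins coactivate, were represented by *Tfap2a* alone, the only one of 5 that passed the filter on low counts. Its level was 34.3 ± 5.57 CPM in the high-pigmented and 32.4 ± 9.81 CPM in the low-pigmented group (SD, n = 3 each), and its log2 fold change was 0.08 ± 0.44 (SE), against -0.045 ± 0.21 (SE) with the set as a block and set 2 left out. 

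Of 21 genes of SMAD signalling, 19 were tested, 9 with a positive log2 fold change, and the median was -0.02, against -0.24 with the block and without set 2. *Smad5*, a BMP-activated SMAD, averaged 103 ± 64.2 and 117 ± 59.1 CPM in the high- and low-pigmented groups (SD, n = 3 each). *Ski*, which encodes a repressor of SMAD complexes, had a log2 fold change of -0.48 ± 0.42 (SE), *Smurf2*, a ubiquitin ligase that limits the pathway, one of -0.51 ± 0.79 (SE), and *Zfyve9*, which presents SMADs to the receptor, one of -0.03 ± 0.46 (SE). Of 16 SMAD target genes, 9 were tested, 7 with a positive value, with a median of 0.20. *Id2*, an inhibitor of helix-loop-helix factors, had 29.1, 53.5 and 176 CPM in high-pigmented libraries of sets 1, 2 and 3. Its low-pigmented libraries had 31.6, 69.5 and 113 CPM. The sets thus had the same order as for *Cited1* within each group. Unlike *Cited1*, *Id2* was lower in high-pigmented cells in sets 1 and 2. Its log2 fold change was 0.27 ± 0.73 (SE). *Ltbp3*, *Tgif1* and *Skil* had log2 fold changes of 0.03, -0.77 and -0.25. With the block and without set 2, *Ski*, *Smurf2* and *Zfyve9* had -0.24, -0.12 and -0.41, and *Ltbp3*, *Tgif1* and *Skil* 0.16, -0.30 and -0.56.

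The hypoxia pathway, in which *Cited2* is both target and inhibitor, had 18 of 18 genes tested, with a median of 0.10. *Hif1a* averaged 88.7 ± 29.3 CPM in the high-pigmented and 65.4 ± 16.2 CPM in the low-pigmented group (SD, n = 3 each), and its within-set differences were -0.45, 1.05 and 0.64 on the log2 scale. *Vegfa*, an angiogenic factor, had a log2 fold change of -0.62 ± 0.50 (SE), the growth inhibitor gene *Ddit4* one of -0.17 ± 0.67 (SE) and the collagen hydroxylase gene *P4ha1* one of 0.17 ± 0.37 (SE). With the block and without set 2, the value of *Vegfa* had the opposite sign, at 0.076 ± 0.18 (SE), and that of *Hif1a* was 0.10 ± 0.22 (SE).

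Other acetyltransferases and coactivators had 19 of 20 genes tested. Of these 4 had a positive log2 fold change and 15 a negative one, with a median of -0.17. Over all genes tested, 5326 of 11324 had a positive value, with a median of -0.04. The median of this list within sets was -0.03 in set 1, -0.81 in set 2 and 0.00 in set 3, the value of set 2 being the farthest from 0. The set medians of all genes tested were 0.016, -0.20 and -0.002. Among the most abundant, the arginine methyltransferase gene *Prmt1* had a log2 fold change of -0.15 ± 0.51 (SE), the Mediator subunit gene *Med1* one of 0.09 ± 0.38 (SE) and *Brd8* one of -0.17 ± 0.38 (SE). Of 15 deacetylase genes, which encode the enzymes that oppose p300 and CBP, 13 were tested with a median of -0.14, and the set medians were 0.21, -1.27 and -0.03. With the block and without set 2, the median of the deacetylases had the opposite sign, at 0.10, and that of the other coactivators was -0.051. *Hdac1* had 328, 65.2 and 76.0 CPM in high-pigmented libraries of sets 1, 2 and 3, and its sequence is nearly identical to stretches of 215 other genes, which makes its counts uncertain. The log2 fold changes of *Hdac2*, *Hdac7* and *Sirt2* were -0.84 ± 0.45, -0.53 ± 0.61 and 0.61 ± 0.52 (SE), against -0.42 ± 0.18, -0.24 ± 0.20 and 0.13 ± 0.18 (SE) with the block and without set 2. In that fit *Brd8* had 0.12 ± 0.19, *Hdac1* 0.085 ± 0.14 and *Prmt1* -0.35 ± 0.15 (SE).

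Of 20 factors that recruit p300 and CBP, 19 were tested, 12 with a positive log2 fold change, and the median was 0.17. *Ets1* averaged 216 ± 4.57 CPM in the high-pigmented and 254 ± 3.71 CPM in the low-pigmented group (SD, n = 3 each). Its SD of log2 CPM, 0.13 over 6 libraries, was the smallest of the list genes named here. Its log2 fold change was -0.23 ± 0.33 (SE). The groups did not overlap, which was also so, in either direction, for 5.74% of all genes tested, so nothing is read from it. *Ctnnb1*, the gene of beta-catenin, and *Stat3* had log2 fold changes of -0.02 ± 0.71 and 0.06 ± 0.47 (SE), against 0.074 ± 0.14 and 0.24 ± 0.16 (SE) with the block and without set 2. With the set as a block and set 2 left out, 1 of 18 genes tested in this list passed, *Fos*, which was higher, and 0 passed in the lists of SMAD signalling, SMAD targets, the hypoxia pathway, other coactivators, deacetylases and AP-2 factors. Of all genes tested in that fit, 1.3% passed. In set 2 *Fos* went the other way, at 1.16 CPM in the high-pigmented and 12.6 CPM in the low-pigmented library. Its log2 fold change over all 6 libraries was 0.44 ± 1.09 (SE).

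**Figure D5:**
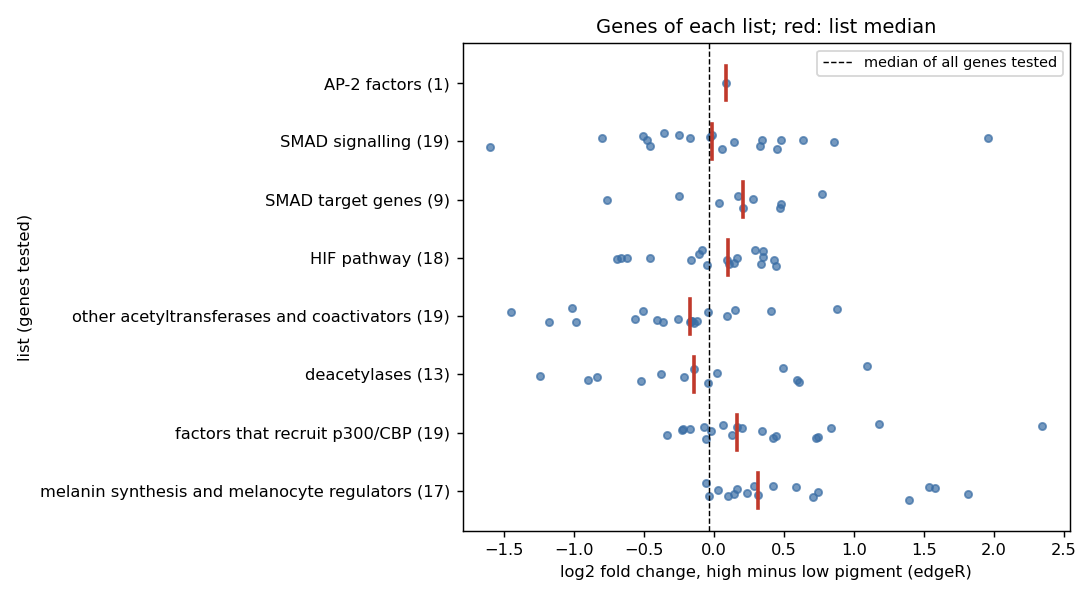
Log2 fold change (high minus low pigment, edgeR, 6 libraries) of each gene tested in 8 lists, with red bars for list medians and a dashed line at -0.04, the median of all 11324 genes tested. The medians run from -0.17 for other acetyltransferases and coactivators to 0.32 for melanin synthesis and melanocyte regulators.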

How the data were processed

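Counts came from 6 QuantSeq 3′-end libraries, which the labels' protocols say were run on a NextSeq sequencer. The authors deposited unnormalised counts for each gene, from HTSeq according to the table's title and closing rows. STAR and GRCm38 are named in the submitters' processing notes with no version. Counting mode, strand and annotation are not given in the sources used here. Molecular identifiers are not mentioned. The 2 rows for unassigned reads were left out; no-feature reads made up 12.4% to 29.5% and ambiguous reads 0.487% to 2.51% of tallied reads.

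Genes were tested with edgeR 4.0.16 in R 4.3.3 (filterByExpr at a minimum count of 10, TMM, robust glmQLFit and glmQLFTest, 2 groups, no covariate, Benjamini-Hochberg over all genes tested, threshold 0.05). CPM use TMM-scaled library sizes, log2 CPM a prior count of 2. The SE is the log2 fold change over the root of the F statistic. DESeq2 1.42.0 and limma-voom 3.58.1, other normalisations and filters, the set as replicate block and leaving out libraries were alternatives. Fits were tested on simulated data. With all 6 libraries and no block, 0% of 2-fold, 8% of 4-fold and 40% of 16-fold changes were recovered. The block fit recovered 0%, 18% and 60% of them, with 8.45% false calls. With the block and without set 2 it was 36%, 84% and 86%. A gene that did not pass can thus still differ between the groups. Libraries of a set deviated together from their group means (correlations across genes of 0.466, 0.316 and 0.422, minimum 0.1), so the title suffix was taken to pair them. All pairs of libraries differed by more than sampling noise (chi-square over its degrees of freedom of 14.6 or more).

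Named genes were the 6 members, list genes that passed, the 4 most abundant others of each list, and the 5 genes most and least correlated with *Cited1*; 1 gene that this rule selects is not reported here. Members and lists were chosen with earlier results of these data known. Of 39 other named genes, 24 overlap an exon of another gene or share a nearly identical stretch (BLAST 2.17.0) with one, which leaves their counts uncertain. Protein sequences were not used here. Figures were drawn with matplotlib 3.10.9.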

Additional observations from a re-analysis of the deposited data

How the results depend on the processing

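With all 6 libraries, the replicate block in edgeR called 0 genes (213 at an unadjusted p under 0.05) and changed no call of a member. The count of genes called was 0 with all libraries and 155 with the replicate block and set 2 left out. It was 0 under every other alternative, including each library left out in turn, which gave 0 to 0 (20 to 128 at an unadjusted p under 0.05). The log2 fold changes of *Ep300* and *Crebbp* were negative under all 16 alternatives. That of *Cited1* was reversed without the high-pigmented library of set 3, and with single libraries left out it ranged from -1.37 to 3.79. With whole sets kept it was 1.28 with the block, 1.17 without set 2 and 1.46 without set 3. *Cited2* ranged from -0.75 to 0.56 with single libraries left out, was -0.33 with the replicate block and was -0.83 with the block and set 3 left out. *Smad4* ranged from -0.21 to 0.20 with single libraries left out, was -0.31 with the block and set 2 left out and -0.091 with the block in limma-voom. *Crebbp* ranged from -2.21 to -0.15 and *Ep300* from -0.87 to -0.32 with single libraries left out. The cause of these changes was not tested. Leaving out set 3 with the block and the block with limma-voom were chosen after the data were seen. Depth limits *Cited4* in all libraries and *Cited2* in the high-pigmented library of set 2.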
